A study of Mus musculus with 4 samples.

Results

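The Schlafen family was followed across the bone marrow cells of mice with myeloma, in the 6 members Slfn1, Slfn2, Slfn4, Slfn5, Slfn8 and Slfn9. They are 6 of the 32285 genes in the deposited matrices and were taken by symbol. They were picked for study on their difference between purinostat mesylate (PM) and vehicle, so that the PM against vehicle values of the members are given here as a description. Their calls in the fit across all genes are only counted, beside the share of all genes called, and support nothing. Droplet-based single-cell RNA sequencing was performed on bone marrow of 5TMM mice, with 1 library per mouse. The vehicle group had 2 mice, and the other 2 mice received PM at 10 mg/kg, all for 24 h. PM inhibits histone deacetylases of class I and class IIb.

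All 4 mice carried the same disease. By the study's methods, 5TGM1-luc cells, a luciferase-marked mouse myeloma line, were injected intravenously into 6-week-old C57BL/KawRij mice (spelled as in the methods), and the mice were treated 3 weeks later. Red cells were lysed before capture. There were no mice without myeloma among these libraries, so that vehicle stands for untreated disease and not for healthy marrow. The labels do not give the sex of the mice.

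Schlafen proteins share a core domain that in some members cuts transfer RNA, and they are known as regulators of growth and quiescence in immune cells and as targets of type I interferon. The short members hold little beyond this core. Slfn1 arrests growth when overexpressed in thymocytes, and Slfn2 keeps T cells and monocytes quiescent and shields transfer RNA from cleavage by angiogenin. Slfn4, of intermediate length, is known from interferon-responsive myeloid cells. The long members Slfn5, Slfn8 and Slfn9 add a helicase-like part, and Slfn5 is a nuclear protein induced by interferon. In the reference annotation the coding sequence had 337 codons for Slfn1 and 378 for Slfn2, 602 for Slfn4, 884 for Slfn5, and 910 each for Slfn8 and Slfn9.

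The 6 genes lie side by side on chromosome 11. In GRCm38 they span 82951349 to 83190216, or 239 kb, in the order Slfn5, Slfn9, Slfn8, Slfn2, Slfn1 and Slfn4, and these 6 were the only annotated protein-coding genes within the span. Slfn8 and Slfn9 are on the minus strand and the others on the plus strand. The promoters of the long members are shown because they were the ones that held an interferon-response-like motif. Each is 300 bases, 250 before and 50 after the start site, read 5′ to 3′ along the strand of the gene from RefSeq on GRCm38.p6, with the motif in capitals.
Slfn5, chr11:82951852-82952151, plus strand: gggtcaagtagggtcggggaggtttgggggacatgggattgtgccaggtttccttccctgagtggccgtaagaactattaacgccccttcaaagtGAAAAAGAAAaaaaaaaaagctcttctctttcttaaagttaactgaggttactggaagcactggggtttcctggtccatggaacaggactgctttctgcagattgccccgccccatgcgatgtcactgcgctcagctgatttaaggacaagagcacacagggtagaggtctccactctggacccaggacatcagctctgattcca
Slfn8, chr11:83020761-83021060, minus strand: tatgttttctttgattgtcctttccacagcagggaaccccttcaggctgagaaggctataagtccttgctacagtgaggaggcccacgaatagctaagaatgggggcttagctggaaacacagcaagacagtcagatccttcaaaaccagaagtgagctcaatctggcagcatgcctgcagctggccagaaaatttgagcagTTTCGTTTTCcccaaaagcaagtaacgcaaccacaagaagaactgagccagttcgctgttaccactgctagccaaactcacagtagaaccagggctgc
Slfn9, chr11:82991781-82992080, minus strand: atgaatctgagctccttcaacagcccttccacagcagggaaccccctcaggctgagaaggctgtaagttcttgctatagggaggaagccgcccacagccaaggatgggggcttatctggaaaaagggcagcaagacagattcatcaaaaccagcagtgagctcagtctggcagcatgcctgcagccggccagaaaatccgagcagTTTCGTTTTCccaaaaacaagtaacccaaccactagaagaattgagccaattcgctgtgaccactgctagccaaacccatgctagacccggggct

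The motif was searched as GAAANNGAAA on both strands, a loose form of the element bound by the interferon-activated complex that holds Irf9. It was present in 3.49% of 27025 promoters of this length. In Slfn5 it began 155 bases before the start site and read GAAAAAGAAA. In Slfn8 and Slfn9 it was the same string, TTTCGTTTTC, 48 and 45 bases before the start site. A second promoter entry of Slfn8, which starts further into the gene, held the same match 136 bases before its start site. The promoters of Slfn1, Slfn2 and Slfn4 had no such letters in this window. The Stat-type motif TTCNNNGAA was in none of the 6, against 8.47% of all promoters. The promoters of Slfn8 and Slfn9 were 81.0% identical when aligned, whereas the other pairs of members were 44.2% to 51.5% identical. A motif match is a description of the sequence and not a site of binding.

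The libraries held 8242 to 13848 cell barcodes and 69828595 to 109447030 unique molecular identifiers (UMIs), and 39743 cells were kept. Median depth per kept cell was 5330.5 and 6067 UMIs under vehicle, against 4717 and 4805 under PM. Between 18 and 41 barcodes were shared by any pair of libraries. The cells fell into 33 clusters, of which 28 were named by markers, and 4.12% to 9.79% of cells per mouse stayed unnamed. There were 12 types with at least 10 cells in each mouse: neutrophils, monocytes with their progenitors (mono&prog), macrophages, dendritic cells (DC, here a single plasmacytoid cluster), eosinophil/basophil progenitors, hematopoietic stem and progenitor cells (HSPC), erythroid cells with progenitors (erythroid&prog), megakaryocytes, T and NK cells, B cells, plasma cells and CXCL12-abundant reticular (CAR) cells. All markers of each type were detected in it. The plasma sums joined 2 clusters, 1 of 277 cells led by Igha and Jchain and 1 of 171 cells led by Mt2 and Mt1. Called doublets (barcodes that may hold 2 cells) were 11.19% of the first cluster and 59.06% of the second. Myeloma cells were not told apart from other plasma cells in these sums. Family members were left out of the genes used for clustering. Counts of each type were summed per mouse, and levels are given as CPM, the UMIs of a gene after the sum was scaled to 1000000 UMIs. A CPM of a 3′ tag library is comparable for 1 gene across sums, and it is not a level per length of transcript. The smallest 2-sided p of an exact test of 2 mice against 2 is 0.33, so that tests below rest on edgeR models across all genes.

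In vehicle marrow the members fell into different cell types, as the plot of CPM by cell type and mouse shows. Slfn1 was highest in neutrophils, at 283 and 232 CPM in the 2 vehicle mice. CAR cells followed at 162 and 146 CPM, and T and NK cells at 136 and 109 CPM. The lowest levels were in plasma cells, at 3.69 and 5.16 CPM. Neutrophils stood above every other type in both mice, whereas T and NK cells, macrophages and mono&prog overlapped with each other.

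Slfn2 was spread over the leukocytes. It was highest in mono&prog, at 479 and 463 CPM, and in neutrophils, at 425 and 434 CPM. T and NK cells had 277 and 298 CPM and B cells 195 and 182 CPM. HSPC had 68.3 and 53.7 CPM, and plasma cells 22.7 and 10.7 CPM. The 2 vehicle mice placed 7 of the 11 neighboring types of this order apart from each other.

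Slfn4 was a neutrophil transcript. Neutrophils had 529 and 353 CPM. Macrophages had 259 and 230 CPM and CAR cells 267 and 204 CPM, while mono&prog had 46.2 and 18.8 CPM and HSPC 28.9 and 13.9 CPM. Of 11 neighboring pairs in the order, 9 overlapped between the mice. In T and NK cells the 2 vehicle mice differed widely, at 147 and 35.9 CPM.

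**Figure D1:**
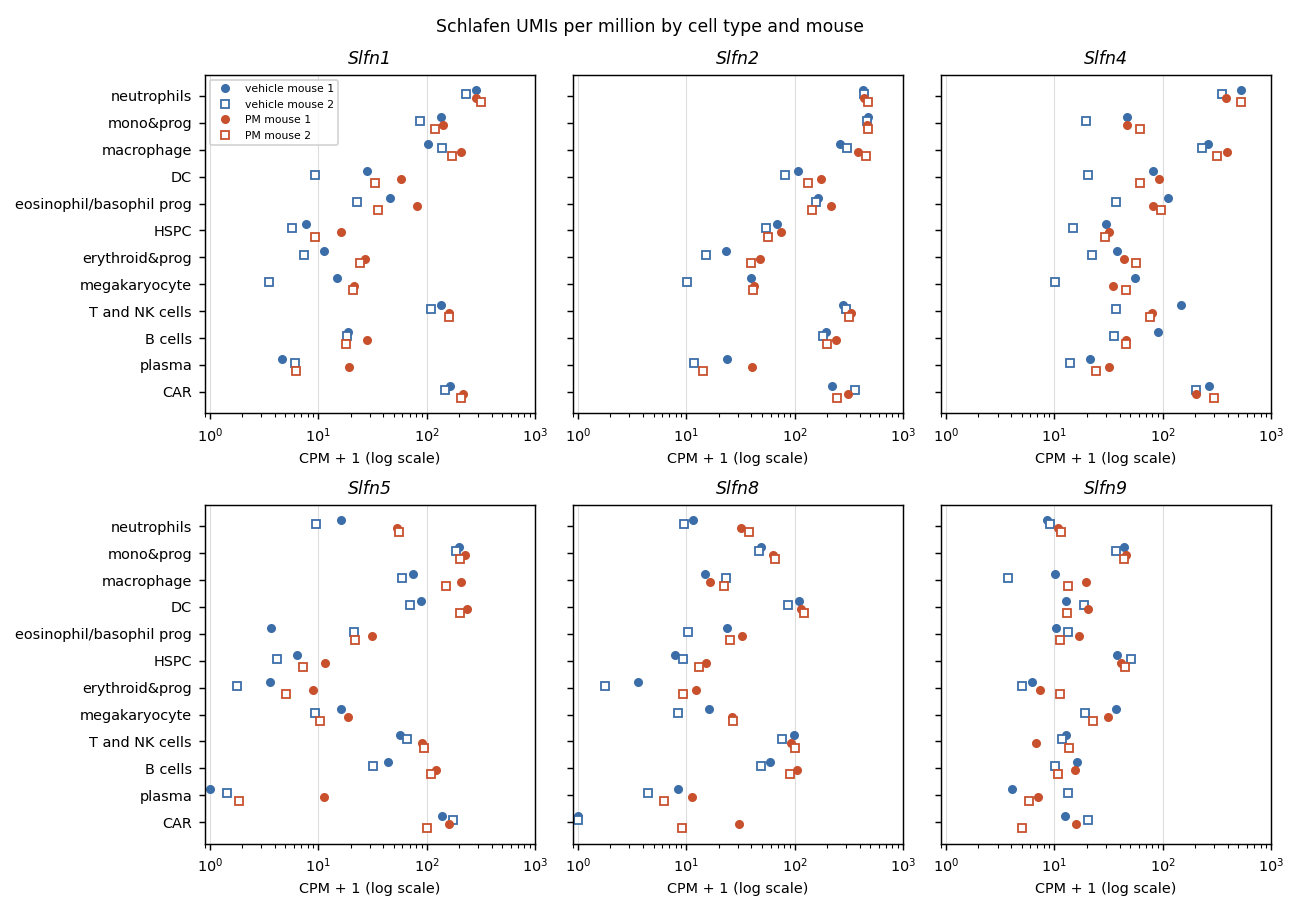
Level of each member by cell type, as CPM + 1 on a log axis, with 1 point per mouse (blue, vehicle; orange, PM; filled circles, mouse 1; open squares, mouse 2). Slfn4 in vehicle neutrophils lay at 353 and 529 CPM, and Slfn5 moved from 8.56 and 15.1 CPM in vehicle neutrophils to 52.4 and 55.0 CPM in PM.

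Slfn5 was highest in mono&prog, at 200 and 186 CPM in vehicle mice, and next in CAR cells at 139 and 175 CPM. DC had 87.6 and 69.0 CPM, macrophages 73.9 and 58.1 CPM, T and NK cells 56.2 and 65.2 CPM, and B cells 42.9 and 31.1 CPM. Vehicle neutrophils were far below, at 15.1 and 8.56 CPM. It was close to absent from plasma cells, with 0 and 1 UMIs in the 2 vehicle sums, and the count of 0 allows up to 1.84 CPM.

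Slfn8 was led by DC, at 108 and 86.7 CPM, and T and NK cells, at 97.9 and 75.2 CPM, which overlapped. B cells had 58.1 and 47.5 CPM and mono&prog 47.8 and 46.4 CPM. Neutrophils had 10.5 and 8.63 CPM. No UMI of Slfn8 was seen in vehicle CAR cells, where 0 allows up to 34.8 and 29.2 CPM with 26 and 28 cells.

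Slfn9 was highest in HSPC and mono&prog, but it was not high in all types with progenitors. HSPC had 37.0 and 49.9 CPM and mono&prog 43.1 and 36.5 CPM, which overlapped, and megakaryocytes had 36.0 and 18.3 CPM. It was at 9.29 and 12.5 CPM in eosinophil/basophil progenitors and at 7.5 and 8.08 CPM in neutrophils. Erythroid&prog had its lowest mean of the 12 types, with 5.18 and 4.01 CPM in the vehicle mice. The highest vehicle mean of Slfn9, 43.5 CPM ± 9.07 (SD, n = 2), was below those of all other members.

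Across the 24 vehicle sums (2 mice by 12 types), log2 CPM of Slfn1 went with that of Slfn2 (r = 0.89) and Slfn4 (r = 0.83). Slfn9 had r between -0.31 and 0.32 with the other 5 members. Slfn8 had r of 0.37 with Slfn5 and 0.17 with Slfn9, the gene of most like sequence. The genes most like each member over the same sums, among 6992 genes whose mean reached 20 CPM, were these. For Slfn1 they were Rasgrp4, S100a6 and Xdh (each r = 0.95), and for Slfn4 they were Il1f9 (0.96), Mmp9 (0.95) and Ceacam10 (0.95). For Slfn2 they were AB124611 (0.94), Sorl1 (0.94) and Stat6 (0.93). Slfn5 was most like Yipf1 (0.90), Ptpn1 (0.88) and Samhd1 (0.87), Slfn8 most like Gpr132 (0.94), Il10ra (0.91) and Coro2a (0.88), and Slfn9 most like Vps36 (0.80), Lmnb2 (0.79) and Erlin1 (0.74). These correlations describe 12 types that share 2 libraries and carry no test.

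Some of the signal outside neutrophils went with neutrophil RNA. The summed CPM of 10 neutrophil transcripts (S100a8, S100a9, Ltf and others), as a percentage of the level in neutrophils of the same mouse, was 42.4% to 70.6% in CAR cells and 38.4% to 60% in macrophages. It was 7.41% to 16.6% in T and NK cells, 4.64% to 8.67% in mono&prog and 3.87% to 5.45% in B cells. Slfn4 lay near this background in some types and above or below it in others. In T and NK cells Slfn4 was 27.7%, 10.2%, 20.7% and 14.3% of its neutrophil level in vehicle mice 1 and 2 and PM mice 1 and 2, beside 16.3%, 10.5%, 16.6% and 7.41% for the neutrophil transcripts. In mono&prog Slfn4 was 8.73%, 5.33%, 11.9% and 11.5%, beside 7.01%, 4.64%, 8.67% and 5.66%. In B cells Slfn4 was above the neutrophil transcripts in each mouse, at 17.0%, 9.91%, 11.8% and 8.65% beside 5.45%, 5.05%, 4.27% and 3.87%. In HSPC it was below them in each mouse, at 5.47%, 3.94%, 8.1% and 5.41% beside 9.49%, 9.85%, 12.3% and 10.1%. In CAR cells Slfn4 was 50.4%, 57.9%, 53.1% and 56.5%, beside 56.5%, 42.4%, 59.8% and 70.6%. Slfn1 in CAR cells was 57.4%, 62.9%, 75.7% and 64.6%. In macrophages Slfn4 was 48.9%, 65.2%, 102% and 60.5% and Slfn1 35.9%, 59.7%, 71.8% and 53.8%, beside 38.4%, 47.3%, 60.0% and 52.1%. Slfn5 was far above the neutrophil transcripts, at 1320% and 2170% of the neutrophil level in mono&prog of the vehicle mice. The part of this background in the levels of Slfn1 and Slfn4 outside neutrophils was not tested.

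**Figure D2:**
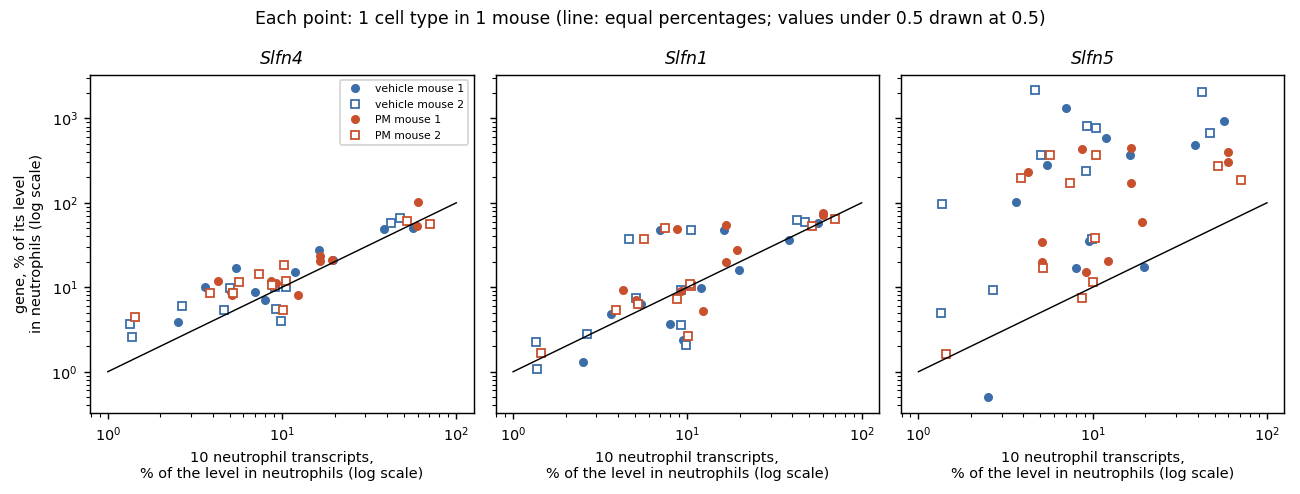
Slfn4, Slfn1 and Slfn5 in each non-neutrophil type and mouse, as a percentage of the level in neutrophils of the same mouse, against the same percentage for 10 neutrophil transcripts, on log axes with the line of equality. Slfn4 in HSPC is below the line in each mouse and in B cells above it, while Slfn5 in mono&prog of the vehicle mice is at 1320% and 2170%.

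Levels were then compared between cell types within mice, which the choice of the family did not use. In neutrophils against mono&prog of all 4 mice, Slfn1 had 281 CPM ± 36.3 and 120 ± 24.4 (SD, n = 4) and was higher in neutrophils in 4 of 4 mice, with a log2 difference of 2.12 ± 0.09 (SE) (edgeR, adjusted p = 4.97e-08). Slfn4 had 447 ± 92.5 and 42.7 ± 17.3 CPM, a log2 difference of 4.34 ± 0.24 (edgeR, adjusted p = 3.17e-05). Slfn9 and Slfn5 were lower in neutrophils. Slfn9 had 8.98 ± 1.42 and 41.8 ± 3.70 CPM, with a log2 difference of -1.35 ± 0.09 (edgeR, adjusted p = 6.81e-07). Slfn5 had 32.8 ± 24.3 and 203 ± 16.8 CPM, with a log2 difference of -2.10 ± 0.59 (edgeR, adjusted p = 0.0375), lower in neutrophils in 4 of 4 mice. This call of Slfn5 was lost without vehicle mouse 1, without vehicle mouse 2 and without PM mouse 1 (adjusted p = 0.146, 0.0668 and 0.0844), where the log2 difference was -1.83, -1.67 and -2.38, and its 4 neutrophil values were themselves spread by treatment. Slfn8 had 21.8 ± 14.3 and 55.4 ± 9.72 CPM and did not pass (log2 difference -0.70 ± 0.35, edgeR, adjusted p = 0.135).

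In all, 3 of the 6 members were called higher and 2 lower in neutrophils than in mono&prog, where 31.5% of all 12911 genes tested were called higher and 34.3% lower. The scaling mattered. The TMM factors, which balance the 2 types over most genes, moved the median of all genes by 0.88 on the log2 scale against plain totals. Slfn2 was called higher in neutrophils with TMM, by 0.79 ± 0.06 (edgeR, adjusted p = 2.93e-06), whereas its CPM was 444 ± 24.2 in neutrophils and 470 ± 6.64 in mono&prog and higher in 1 of 4 mice. Scaled to total UMIs its difference was -0.09 (edgeR, adjusted p = 0.183), and no direction is given for Slfn2. Under that scaling Slfn8 was lower in neutrophils, at -1.58 ± 0.36 (edgeR, adjusted p = 0.0134), while Slfn1 and Slfn4 kept their sign and their call.

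In T and NK cells against B cells, Slfn1 had 141 ± 23.9 and 19.8 ± 4.81 CPM (SD, n = 4) and had the largest difference of the members, with a log2 difference of 2.93 ± 0.14 (edgeR, adjusted p = 5.44e-12). Slfn2 was higher in T and NK cells by 0.70 ± 0.09 (305 ± 22.5 and 204 ± 25.3 CPM, edgeR, adjusted p = 4.53e-06). Both were higher in 4 of 4 mice. Slfn4 was higher by 0.74 ± 0.14 (edgeR, adjusted p = 0.000197), but it was lost with called doublets left out (0.25, adjusted p = 0.2), and T and NK cells carried more neutrophil RNA than B cells in each mouse. For Slfn5 (0.19 ± 0.25, edgeR, adjusted p = 0.584) and Slfn9 (-0.21 ± 0.30, edgeR, adjusted p = 0.607) no difference was detected with 4 mice. For Slfn5 this value averages opposite orders in the 2 groups. T and NK cells were above B cells in both vehicle mice (56.2 and 65.2 against 42.9 and 31.1 CPM). In both PM mice they were below (90.8 and 93.9 against 122 and 109 CPM). Slfn8 had a log2 difference of 0.38 ± 0.14, under the size used for a call (edgeR, adjusted p = 0.0436). Thus 3 of 6 members were called higher and 0 lower, where 20% of 11211 genes were called higher and 16.7% lower.

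Along neutrophil maturation, 5 of the 6 members rose. Mature cells (marked by Cxcr2, Csf3r and Retnlg) were compared with immature cells (marked by Ltf, Camp and Ngp) within each mouse. Slfn1 was 541 ± 46.8 CPM in mature and 201 ± 26.1 CPM in immature neutrophils (SD, n = 4), a log2 difference of 1.79 ± 0.08 (edgeR, adjusted p = 4.84e-11). Slfn2 was 656 ± 38.4 and 388 ± 15.7 CPM, a log2 difference of 1.12 ± 0.07 (edgeR, adjusted p = 1.79e-09). Slfn4 was 632 ± 115 and 448 ± 107 CPM, a log2 difference of 0.87 ± 0.07 (edgeR, adjusted p = 6.49e-08). Slfn5 rose most, by 2.15 ± 0.16 on the log2 scale (edgeR, adjusted p = 1.64e-08), and it was higher in mature cells in 4 of 4 mice. Slfn8 rose by 0.92 ± 0.16 (edgeR, adjusted p = 0.000115), higher by CPM in 3 of 4 mice. Slfn9 was at 0.933 ± 0.731 and 2.36 ± 1.90 CPM and had a log2 difference of -0.96 ± 0.54 (edgeR, adjusted p = 0.128). Among 9729 genes tested 26.4% were called higher and 30.9% lower in mature cells. TMM moved the median of all genes by 0.37 here and by 0.12 between T and NK cells and B cells.

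Under PM, Slfn5 and Slfn8 were the members with the largest differences from vehicle in neutrophils and B cells. In neutrophils Slfn5 was at 15.1 and 8.56 CPM under vehicle, against 52.4 and 55.0 CPM under PM. The PM mice were close to each other and did not overlap with the vehicle mice. The log2 fold change was 2.07 ± 0.27 (SE), and the ratio of means was 4.53. Slfn8 was at 10.5 and 8.63 CPM in vehicle and 31.2 and 36.8 CPM in PM neutrophils. Again both PM mice were above both vehicle mice, with a log2 fold change of 1.72 ± 0.13. Slfn9, the neighbor with the most similar promoter, was at 7.5 and 8.08 CPM in vehicle and 9.85 and 10.5 CPM in PM neutrophils, a log2 fold change of 0.29 ± 0.13 in the sum of all neutrophils.

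The 3 members with the highest CPM in neutrophils had smaller differences. Slfn2 was at 425 and 434 CPM in vehicle and 438 and 479 CPM in PM neutrophils, with a log2 fold change of 0.00 ± 0.13. Slfn1 was at 283 and 232 CPM and 288 and 320 CPM, with a log2 fold change of 0.14 ± 0.15. Slfn4 overlapped between the groups, at 529 and 353 CPM in vehicle and 383 and 524 CPM in PM. TMM moved the median of all genes in neutrophils by -0.10 against plain totals.

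In B cells Slfn5 was at 42.9 and 31.1 CPM in vehicle and 122 and 109 CPM in PM, a log2 fold change of 1.76 ± 0.19. Slfn8 was at 58.1 and 47.5 CPM and 104 and 90.6 CPM, a log2 fold change of 0.95 ± 0.17. Both were without overlap. Slfn4 in B cells was at 89.9 and 34.9 CPM in vehicle and 45.3 and 45.3 CPM in PM, between the 2 vehicle values. The other 3 members in B cells had log2 fold changes of 0.22 to 0.37.

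In other types Slfn1 was among the members with the larger differences. In DC it was at 27.4 and 8.39 CPM in vehicle and 57.1 and 32.8 CPM in PM, a log2 fold change of 1.47 ± 0.47 beside 1.49 ± 0.19 for Slfn5 and 0.27 ± 0.19 for Slfn8. In HSPC it was at 6.71 and 4.78 CPM and 15.2 and 8.45 CPM (1.03 ± 0.34), beside 0.97 ± 0.34 for Slfn5 and 0.78 ± 0.19 for Slfn8. In megakaryocytes it was at 13.9 and 2.49 CPM and 20.3 and 20.1 CPM (1.48 ± 0.58), beside 0.27 ± 0.49 for Slfn5 and 1.23 ± 0.38 for Slfn8. In these 3 types both PM mice were above both vehicle mice for Slfn1. Its megakaryocyte sums held 10 and 3 UMIs in vehicle. As a percentage of its neutrophil level (vehicle mice 1 and 2, then PM mice 1 and 2), Slfn1 was set beside the neutrophil transcripts. In megakaryocytes it was 4.89%, 1.07%, 7.05% and 6.3%, beside 3.63%, 1.37%, 5.09% and 5.2%. In DC it was 9.69%, 3.61%, 19.8% and 10.3%, beside 11.9%, 9.22%, 16.6% and 10.5%. In HSPC it was below them in each mouse. The part of neutrophil RNA in these differences was not tested.

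In DC Slfn5 was at 87.6 and 69.0 CPM in vehicle and 234 and 201 CPM in PM, with a log2 fold change of 1.49 ± 0.19. Macrophages had a difference of like size, from 73.9 and 58.1 CPM to 207 and 151 CPM (1.52 ± 0.33). In T and NK cells Slfn5 was at 56.2 and 65.2 CPM in vehicle and 90.8 and 93.9 CPM in PM, a log2 fold change of 0.62 ± 0.16. In mono&prog, where the vehicle level was highest, it was at 200 and 186 CPM in vehicle and 226 and 201 CPM in PM (0.12 ± 0.12). After PM, neutrophils at 52.4 and 55.0 CPM were still below mono&prog.

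**Figure D3:**
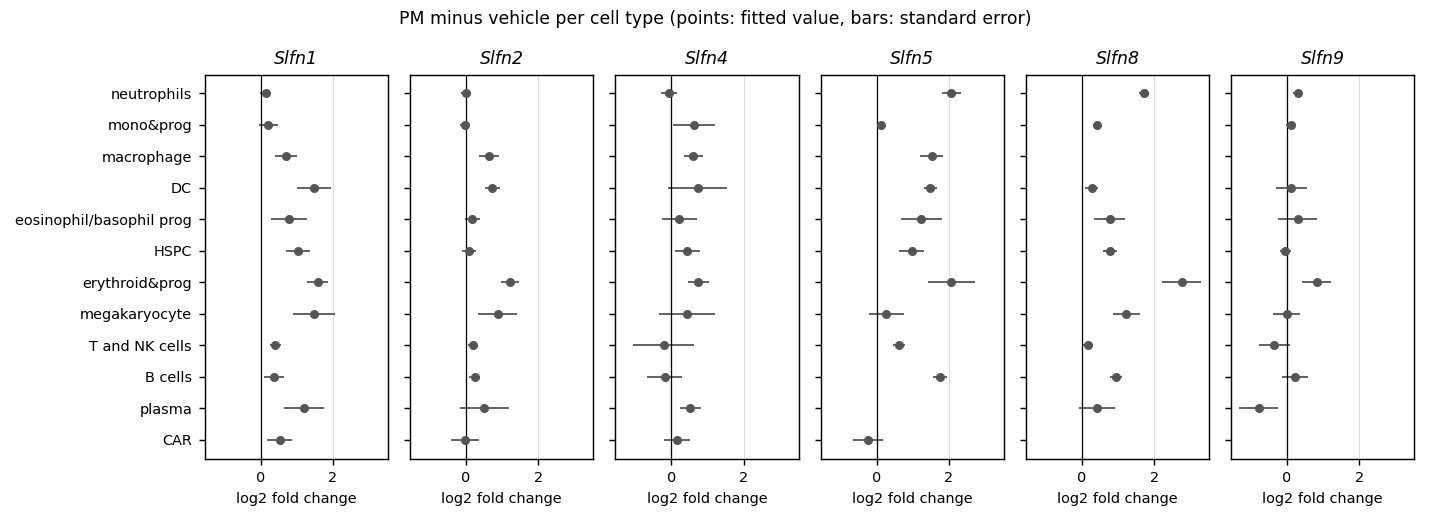
Log2 fold change of PM minus vehicle for each member (panels) and cell type (rows), with the standard error as bars. Slfn5 is at 2.07 in neutrophils, 1.76 in B cells and 1.49 in DC, and Slfn8 is at 1.72 in neutrophils, 0.95 in B cells and 0.27 in DC.

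Of the 72 pairs of a member and a cell type, 67 passed the filter on low counts. The 5 that did not were Slfn5 in plasma cells and Slfn8 and Slfn9 in CAR cells and macrophages. Of the 67, 5 were called higher under PM, at an adjusted p under 0.05 and a log2 fold change over 0.5 in size, and 0 lower. Over all 110923 gene and type pairs 1.12% were called higher and 0.467% lower. In neutrophils 5.01% of genes were called higher and 0.648% lower, in B cells 3.17% higher, in DC 0.697% higher, in mono&prog 1.24% higher and 0.554% lower, and in T and NK cells 0.222% higher and 0.273% lower. In B cells 327 of 10636 genes were called lower, and in HSPC 36 of 12446 were called higher and 4 lower. The fold change was above 0 in 56 of the 67 pairs, both PM mice were above both vehicle mice in 38 and below in 0, and 29 overlapped, where 26.0% of all pairs were above and 16.4% below. The median log2 fold change over the types tested was 1.24 for Slfn5, 0.78 for Slfn8, 0.73 for Slfn1, 0.44 for Slfn4, 0.21 for Slfn2 and 0.11 for Slfn9, where the median of all genes was between -0.01 and 0.02 in each type. Since the family was chosen on this contrast, nothing is read from these counts.

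These counts also moved when 1 mouse was left out. Slfn5 in neutrophils was not called without PM mouse 1 or without PM mouse 2, with log2 fold changes of 1.71 to 2.56 over the 4 fits that left out 1 mouse. Slfn8 in B cells was not called without vehicle mouse 2 or without PM mouse 1, at 0.75 to 1.06. Slfn5 in DC was not called with a stricter cell filter, with members among the clustering genes or with coarser clusters. The count of pairs called higher was 21 without vehicle mouse 1, 8 without vehicle mouse 2, 3 without PM mouse 1 and 11 without PM mouse 2.

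A sum over neutrophils can move by the mix of states or by the level within a state, so that the states were also taken apart. Slfn5 was higher in both PM mice in each of 5 named states. In immature neutrophils it was at 2.67 and 2.06 CPM in vehicle and 18.5 and 14.2 CPM in PM. In mature neutrophils it was at 14.7 and 6.40 CPM and 50.8 and 45.2 CPM. In the state marked by Il1b, Ptgs2 and Cxcl2 (Il1b-high) it was at 121 and 67.5 CPM and 331 and 303 CPM. In the state marked by Ifit1, Rsad2 and Isg15 (interferon-stimulated) it was at 94.9 and 99.7 CPM and 325 and 332 CPM. The vehicle mice of both of these last states were above the PM mice of mature neutrophils. The ratio of PM to vehicle means was 6.93, 4.56, 3.36 and 3.37 in these 4 states, and 1.87 in cycling precursors, which had 1.99 to 5.24 CPM.

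Slfn8 was also higher in each state. It was at 6.52 and 5.90 CPM in vehicle and 27.1 and 26.4 CPM in PM immature neutrophils, and at 12.4 and 9.76 CPM and 26.8 and 42.4 CPM in mature ones. Il1b-high neutrophils had 41.8 and 29.4 CPM in vehicle and 121 and 115 CPM in PM, and interferon-stimulated neutrophils 68.5 and 95.0 CPM and 124 and 134 CPM. In each state, cycling precursors included, both PM mice were above both vehicle mice. Interferon-stimulated cells made up 2.74% and 2.06% of neutrophils in vehicle mice and 4.32% and 3.63% in PM mice, which is a share set by genes that themselves differed between the groups.

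Slfn4 differed from this within the same cells. In interferon-stimulated neutrophils it was at 1360 and 1370 CPM in vehicle and 942 and 1250 CPM in PM. In Il1b-high neutrophils it was at 793 and 586 CPM in vehicle and 962 and 1180 CPM in PM. PM was below vehicle in the one state and above it in the other. Slfn9 was the exception among members in that cycling precursors had its highest neutrophil levels, at 13.4 and 16.0 CPM in vehicle mice, with at most 2.11 CPM in the later states. Under PM it was at 14.2 and 24.2 CPM in cycling precursors, which overlapped with vehicle. In immature neutrophils Slfn9 was at 0.89 and 0.549 CPM in vehicle and 3.76 and 4.22 CPM in PM, a ratio of means of 5.55. In Il1b-high neutrophils it was at 0.929 and 1.03 CPM and 6.81 and 3.83 CPM, and in interferon-stimulated neutrophils at 2.11 and 0 CPM and 7.44 and 13.3 CPM, where the count of 0 allows up to 6.95 CPM. Both PM mice were above both vehicle mice in these 3 states, on 0 to 9 UMIs a sum in vehicle and 10 to 28 in PM, and overlapped in mature neutrophils. Members were left out of the clustering genes, but other interferon-stimulated genes were not, and Slfn5 stood among the leading genes of the interferon-stimulated state. Slfn4 did so in the cluster led by Ifit1 and Rsad2 among the clusters of all cells. Between 32.6% and 37.1% of neutrophils per mouse were in clusters that got no state name. A further cluster of 1279 cells, led by Il1b, Ptgs2 and Cxcl2, got no type name and is in none of the neutrophil sums.

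**Figure D4:**
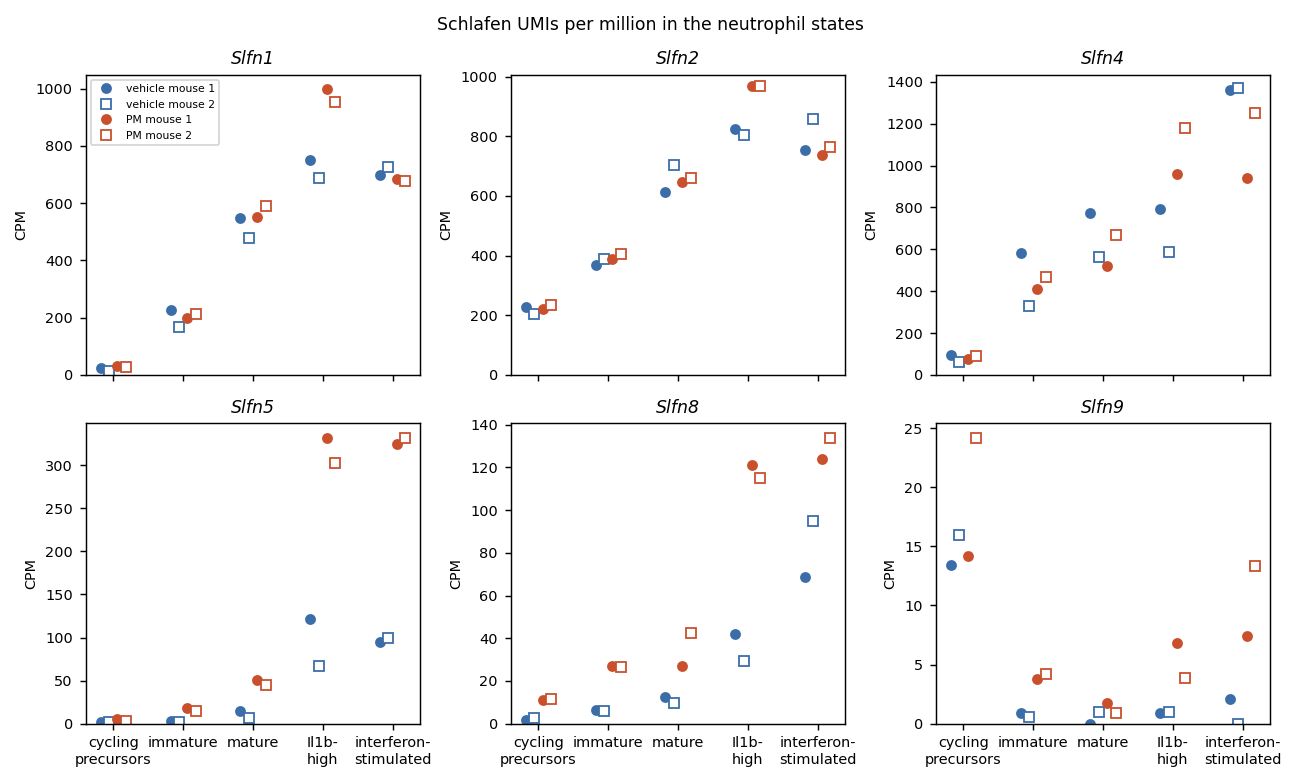
CPM of each member in 5 neutrophil states, with 1 point per mouse (blue, vehicle; orange, PM; filled circles, mouse 1; open squares, mouse 2) on linear axes from 0. Slfn5 in Il1b-high and interferon-stimulated cells is at 303 to 332 CPM in PM and 67.5 to 121 CPM in vehicle.

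In B cells the shares of the states were not the same in the groups, and the part of this in the sums was not tested. Mature B cells were 46.7% and 28.1% of B cells in vehicle and 62.3% and 53.7% in PM. No state name was given to 26.4% and 32.7% of B cells in vehicle and 28.4% and 31.4% in PM. Of the named states, Slfn5 was highest in mature cells in each mouse. In vehicle mice it was at 70.8 and 86.0 CPM in mature cells and at 48.5 and 3.16 CPM (4 and 2 UMIs) in small pre-B and immature cells. Both vehicle sums of pro-B and large pre-B cells had 0 UMIs, which allows up to 20.4 and 3.12 CPM. In PM small pre-B and immature cells had 39.0 and 84.2 CPM of Slfn5 (6 and 12 UMIs). Within mature B cells Slfn5 was at 168 and 174 CPM in PM, a ratio of means of 2.18, compared with 3.12 for the sum of all B cells. Slfn8 in mature B cells was at 85.8 and 97.3 CPM in vehicle and 133 and 117 CPM in PM, a ratio of 1.36 compared with 1.84 for the sum. In small pre-B and immature cells Slfn8 was at 24.2 and 22.1 CPM in vehicle and 91.0 and 105 CPM in PM, on 2 to 15 UMIs a sum.

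Among T and NK cells, Slfn1 was a T cell transcript. Vehicle NK cells had 0 UMIs of Slfn1 in both mice, which allows up to 21.5 and 18.7 CPM, whereas effector and memory T cells had 262 and 249 CPM. Naive T cells had 143 and 123 CPM and regulatory T cells 142 and 51.4 CPM. After PM these values were 6.77 and 16.9 CPM in NK cells and 271 and 249 CPM in effector and memory T cells. Slfn2, known for T cell quiescence, was at 387 and 469 CPM in effector and memory, 223 and 189 CPM in naive and 158 and 269 CPM in NK cells of vehicle mice. In naive T cells Slfn2 was at 270 and 264 CPM under PM, above both vehicle mice, on 14 and 20 UMIs in vehicle. Naive cells were 7.34% and 10.4% of T and NK cells in vehicle (19 and 27 cells) and 26.1% and 23.3% in PM. No state name was given to 49.4% and 46.2% of T and NK cells in vehicle and 38.8% and 33.3% in PM. Slfn8 was highest in effector and memory T cells, at 190 and 138 CPM in vehicle mice. Slfn5 overlapped between effector and memory cells, at 208 and 117 CPM, and regulatory cells, at 88.5 and 231 CPM.

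In mono&prog, Slfn5 was highest in classical and MHC class II-expressing monocytes. In vehicle mice it was at a mean of 441 ± 20.9 CPM (SD, n = 2) in classical monocytes and 544 and 489 CPM in MHC class II-expressing monocytes, but 17.9 and 21.0 CPM in cycling progenitors. Non-classical monocytes had 27.7 and 58.6 CPM in vehicle and 181 and 157 CPM in PM, on 5 to 14 UMIs a sum. Classical monocytes had 572 and 507 CPM under PM, above both vehicle mice by a ratio of 1.22. MHC class II-expressing monocytes had 620 and 622 CPM under PM (ratio 1.20) and cycling progenitors 42.5 and 27.1 CPM (ratio 1.79). Both PM mice were thus above both vehicle mice in all 4 named states, whereas the sum of mono&prog had a log2 fold change of 0.12. MHC class II-expressing cells were 14.8% and 13.9% of mono&prog in vehicle and 5.04% and 6.02% in PM, and the part of this in the sum was not tested. No state name was given to 23.8% and 24.9% of mono&prog in vehicle and 36.4% and 28.8% in PM. Slfn9 had the reverse order, with 80.4 and 61.9 CPM in cycling and 22.6 and 13 CPM in classical cells of vehicle mice. Slfn8 in MHC class II-expressing monocytes was at 94.7 and 92.6 CPM in vehicle and 189 and 147 CPM in PM.

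In erythroid&prog both PM mice were above both vehicle mice for all 6 members, and no member was called. Over all types pooled 26.0% of gene and type pairs were above in this way, and the share in erythroid&prog alone was not counted. Nothing is read from this count, since the family was chosen on this contrast. Slfn8 was at 2.59 and 0.802 CPM in vehicle (5 and 4 UMIs) and 11.2 and 8.36 CPM in PM, the largest log2 fold change of any pair at 2.76 ± 0.53. Slfn5 was at 2.59 and 0.802 CPM and 8.04 and 4.08 CPM, a log2 fold change of 2.07 ± 0.64. Slfn1 was at 10.4 and 6.42 CPM and 26.0 and 23.3 CPM, a log2 fold change of 1.57 ± 0.29. The cells of these sums were not alike, since median depth was 6724 and 6662 UMIs in vehicle and 17672.5 and 6478 UMIs in PM, and the neutrophil transcripts were 7.97% and 2.67% of the neutrophil level in vehicle and 9.20% and 8.70% in PM. The part of these in the differences was not tested.

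The share of cells with at least 1 UMI was also higher under PM for Slfn5 and Slfn8 in neutrophils. Cells were thinned to 1000 UMIs each, which left out cells with fewer. Slfn5 was then detected in 1.89% and 1.23% of vehicle neutrophils and 6.49% and 6.06% of PM neutrophils (5.12%, 3.47%, 14.8% and 13.8% unthinned). In mono&prog the thinned share was 21.5% and 20.4% in vehicle and 24.5% and 21.7% in PM. Plasma cells, where its vehicle CPM was lowest, had thinned shares of 0% to 0.753% at median depths of 18885 to 24728 UMIs, compared with 4401.5 to 5917 UMIs in neutrophils. Slfn8 was detected in 1.54% and 1.23% of thinned vehicle neutrophils and 4.08% and 4.39% of PM neutrophils (6.16%, 5.14%, 13.5% and 15.5% unthinned). For Slfn8 the thinned share in plasma cells was 0.227% to 0.703%.

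The genes next to the cluster were looked at as well. Of 9 protein-coding genes near the 6 members (Rffl, Rad51d, Fndc8, Nle1 and Unc45b on one side and Slfn3, Slfn14, Ap2b1 and Rasl10b on the other), 0 were called by edgeR in either direction in neutrophils or B cells, as the plot along the gene cluster shows. Fndc8, Unc45b, Slfn14 and Rasl10b did not pass the filter on low counts in either type, nor did Slfn3 in B cells. The largest of those tested was Nle1, with log2 fold changes of 0.82 ± 0.50 in neutrophils and 0.81 ± 0.32 in B cells. Rad51d had a log2 fold change of 0.27 ± 0.14 in neutrophils. Within the cluster Slfn5 and Slfn8 flank Slfn9.

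**Figure D5:**
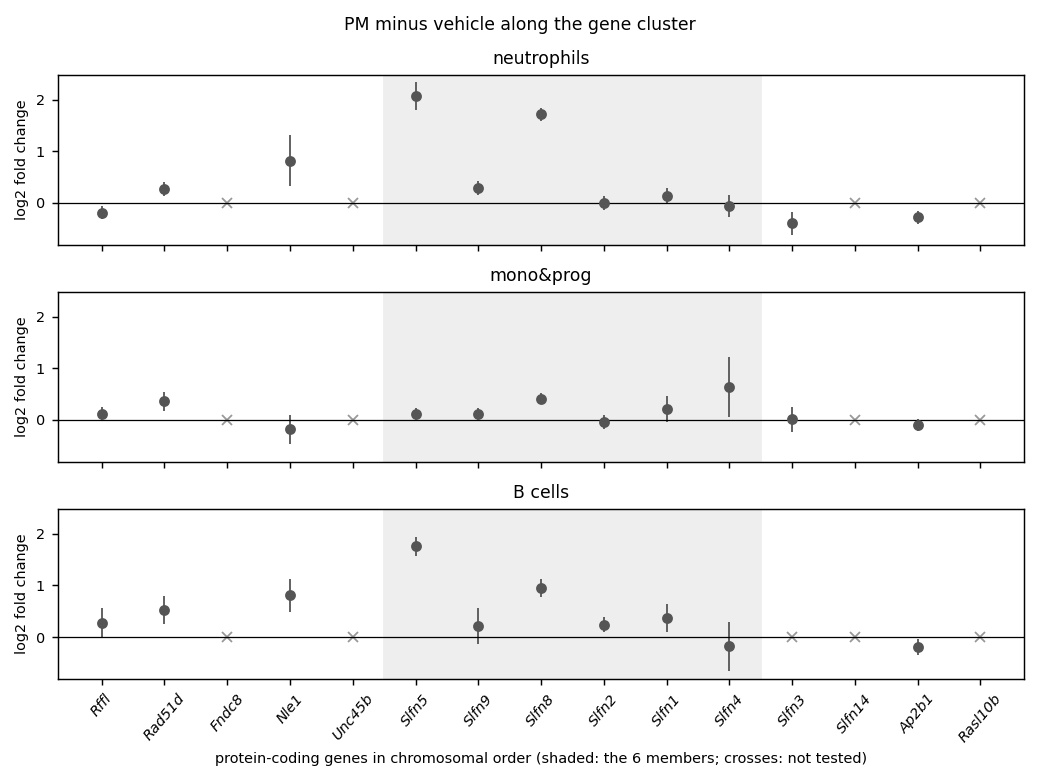
Log2 fold change of PM minus vehicle with its standard error for 15 protein-coding genes in chromosomal order in neutrophils, mono&prog and B cells (crosses, not tested; shaded, the 6 members). In neutrophils Slfn5 is at 2.07 and Slfn8 at 1.72, on either side of Slfn9 at 0.29.

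Of 5 other Schlafen genes listed, 3 were in the matrices. Slfn3 had 2.35 and 2.97 CPM in vehicle and 2.11 and 2.15 CPM in PM neutrophils (log2 fold change -0.40 ± 0.23). It was at 5.75 and 7.89 CPM and 6.92 and 7.01 CPM in mono&prog (0.01 ± 0.24), and it had 3 to 5 UMIs per sum in T and NK cells. Slfn14 had 1 to 3 UMIs in each neutrophil sum and Slfnl1 at most 1. Since these genes are near copies of each other in parts, shared sequence was checked. Slfn8 and Slfn9 share an identical run of 139 bases, and Slfn2 and Slfn4 one of 101 bases, while Slfn5 shares no run of 50 bases or more with another member. In the last 500 bases, where 3′ tags fall, 3.1% of 50-base windows of Slfn8 were shared and 0% of those of the other members.

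The genes that carry the interferon signal to its targets were looked at in 15 receptor and signal genes. The receptor chain Ifnar1 was at 37.5 and 36.4 CPM in vehicle and 34.7 and 38.1 CPM in PM neutrophils, and Ifnar2 at 84.9 and 84.1 CPM and 79.4 and 87.7 CPM. The kinases Jak1 and Tyk2 had log2 fold changes of -0.18 ± 0.13 and -0.10 ± 0.12, and Stat2, a part of the same complex as Irf9, of 0.19 ± 0.13. The groups of the receptors and the kinases overlapped. Irf9, the DNA-binding part of the interferon-activated complex, was at 67.2 and 55.7 CPM in vehicle and 92.6 and 101 CPM in PM neutrophils, and it was called higher with a log2 fold change of 0.56 ± 0.12. Irf7, an amplifier of interferon transcription, was at 15.8 and 13.7 CPM and 32.3 and 28.5 CPM and was called higher at 0.95 ± 0.14. In mono&prog Irf7 had a log2 fold change of 0.98 ± 0.19 and Irf9 of 0.28 ± 0.11, neither called. In T and NK cells Irf9 was at 0.40 ± 0.16 and Irf7 at 0.17 ± 0.30, and Jak1 was at 740 and 704 CPM in vehicle and 520 and 592 CPM in PM, a log2 fold change of -0.37 ± 0.13. Of the 15 genes, 3 were called higher in neutrophils (Usp18, Irf7 and Irf9), 2 in B cells (Usp18 and Irf7), 1 in mono&prog (Usp18) and 0 in T and NK cells and HSPC, with 0 lower by edgeR. At an unadjusted p under 0.05, 4 were higher and 4 lower in T and NK cells and 3 higher and 0 lower in HSPC.

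Of 19 interferon genes themselves, 0 passed the filter on low counts in neutrophils, mono&prog, B cells and HSPC, and 1 in T and NK cells, which was not called (log2 fold change -0.96). Of the 51 other type I interferon-stimulated genes in the matrices, 13 of 47 tested were called higher in neutrophils, 15 of 50 in mono&prog, 16 of 44 in B cells, 4 of 47 in HSPC and 0 of 44 in T and NK cells, with 0 called lower in any of them. Their median log2 fold change was 0.67, 0.60, 0.72, 0.55 and 0.23, where the median of all genes was 0.00 or 0.01. Isg15, Ifit3, Ifih1 and Rsad2 were among those called in neutrophils, and Oasl2, Oas2 and Ifit1 in B cells. In T and NK cells edgeR and DESeq2 both called 0, while 12 of the 44 were higher and 0 lower at an unadjusted p under 0.05, and over the alternative fits the count of calls ran from 0 to 7. This list was written with earlier results of these data known.

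The other lists are given by their edgeR calls, beside the shares of all genes called in each type that are given above. In B cells these were 337 genes higher and 327 lower of 10636 tested. The share of all genes at an unadjusted p under 0.05 was not counted, so that counts at that threshold have no share beside them. Of 9 genes of transfer RNA cleavage and codon usage, which include the partners of Slfn2, Rnase4 and Ang (angiogenin) were called higher in neutrophils and Rnase4 in mono&prog, and 0 in T and NK cells, B cells or HSPC. Of the 6 deacetylases that PM inhibits, 0 were called in neutrophils, mono&prog, T and NK cells and HSPC, and Hdac8 was called lower in B cells. In the first 4 of these types 2 were higher and 0 lower at an unadjusted p under 0.05, 1 in neutrophils and 1 in HSPC. Of 20 cell cycle genes 3 were called lower in T and NK cells (Ccna2, Mki67 and Top2a) and 2 in B cells (Ccnb2 and Rrm2), with 0 in the other 3 types. Of 22 genes of handling stress, 4 were called higher in neutrophils (Jun, Fosb, Fos and Hspa1b), and in B cells 1 was called higher (Hspa8) and 5 lower (Btg2, Jun, Fosb, Zfp36 and Jund). The 10 neutrophil transcripts had 0 calls in neutrophils, mono&prog, T and NK cells and HSPC, and Lcn2 and Ltf were called lower in B cells. The stress genes and neutrophil RNA thus moved in the same B cell sums as Slfn5 and Slfn8, and their part was not tested.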

How the data were processed

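Bone marrow cells of 4 mice with 5TMM myeloma (2 vehicle, 2 PM; 1 library per mouse) were captured by 10x Chromium 3′ sequencing. The authors deposited UMI counts per gene and cell barcode, as whole-number matrices with no normalization. The study's methods name GRCm38, while the submitters' processing notes list GRCm39, Cell Ranger and STAR without versions, and coordinates here are from the GRCm38 annotation matched by gene identifier. The reads were counted by the authors.

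A barcode was kept from 300 genes upward and up to 20% of mitochondrial UMIs, which left 7826 to 13387 cells per mouse. Cells were clustered with scanpy 1.11.5 and leidenalg 0.10.2 on 2500 variable genes without the family members (30 components, 15 neighbors, resolution 1), with all mice joined and no batch correction. Clusters were named by listed markers, and the score thresholds of naming were set after the clusters had been seen. Doublets were called (6.9% to 11.362% per mouse) and kept. UMIs were summed per mouse and type and fitted with edgeR 4.0.16 (quasi-likelihood, TMM, filterByExpr), 1 fit per type. Comparisons of types or states had the mouse as a block. Calls needed a log2 difference over 0.5 in size and, after Benjamini-Hochberg adjustment over all genes of the fit, a p under 0.05. Standard errors are the log2 difference divided by the root of F. Limits at a count of 0 use 3 counts and cover counting error only. With 2 mice per group and no stated litter or batch, p-values of PM against vehicle measure the spread between these mice. In comparisons of types or states they measure the spread of the differences within these mice, since the mouse was a block.

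The members and lists were chosen with earlier results of these data known. The text names the members, the other Schlafen genes, the interferon signal genes, the 3 genes most like each member, the called genes of each list and genes on either side of the cluster, and some items that this rule would name are not reported here. DESeq2 1.42.0, other scalings, filters, cell selections, clusterings and leaving out each mouse were alternatives. The edgeR step was tested on simulated data made from these sums, where it recovered 85.8% of changes of 1 and 97.8% of changes of 2 on the log2 scale in neutrophils, and 57.1% and 93.4% in T and NK cells. All genes of a comparison were simulated with the same spread between mice, and only genes that passed the filter were changed. Recovery of genes with a larger spread was thus not measured.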

Additional observations from a re-analysis of the deposited data

Results flagged for a closer look

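For 6 pairs of states, both PM mice were above both vehicle mice for a member in one state and below them in the other. They were picked out of all members and named states by this rule, and its share over all genes was not counted. In the sums by type, 26.0% of all gene and type pairs were above in this way and 16.4% below. Nothing is read from the count of 6. The differences between states were not tested. Each is given as the log2 ratio of PM to vehicle means in the first state minus that in the second. For Slfn4 it was 0.95 between Il1b-high neutrophils, where both PM mice were above both vehicle mice, and interferon-stimulated neutrophils, where both were below. For Slfn1, interferon-stimulated neutrophils, at 697 and 726 CPM in vehicle and 686 and 676 CPM in PM, differed from Il1b-high neutrophils by 0.51, from cycling precursors by 0.64 and from mature neutrophils by 0.21. For Slfn2 the difference was 0.54 between MHC class II-expressing monocytes, at 547 and 511 CPM in vehicle and 691 and 749 CPM in PM, and cycling monocyte progenitors, at 430 and 426 CPM and 395 and 409 CPM. For Slfn9 it was 1.02 between classical monocytes, at 22.6 and 13 CPM in vehicle and 30.6 and 22.9 CPM in PM, and cycling progenitors, at 80.4 and 61.9 CPM and 56.7 and 49.2 CPM. The states of 1 type share their mice.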

How the results depend on the processing

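The 5 member and type pairs called higher under PM became 18 with no filter on low counts, 10 with the replicate number as a block, and 3 to 21 when 1 mouse was left out, while the 0 called lower became 0 to 2. The 2 were Slfn4 in B cells and in T and NK cells without vehicle mouse 2. Mice of the same number did not deviate together (r of -0.159 in neutrophils to 0.234 in CAR cells), so that the pairing by number is only an alternative. The crossed pairing, chosen after seeing the data, gave 10 calls higher. Slfn2 in neutrophils against mono&prog turned from 0.79 to -0.09 when scaled to total UMIs, which was also chosen after seeing the data. The call of Slfn5 in that comparison was lost with no filter on low counts (edgeR, adjusted p = 0.0657). Genes called in all ran from 335 to 1310 in neutrophils (681 as reported), 104 to 1158 in B cells (664), 9 to 1074 in mono&prog (211) and 24 to 302 in T and NK cells (49). Interferon-stimulated genes called higher ran from 12 to 24, 3 to 22, 0 to 27 and 0 to 7 in these types. Of the values of single pairs under PM, 734 counted as the same, 113 as moved, 7 as having lost the call and 0 as reversed. A change of sign could count as moved, so that 0 reversed does not mean that each sign held. Over the fits that left out 1 mouse, Slfn4 ran from -0.90 to 1.11 in T and NK cells. In B cells Slfn4 ran from -0.98 to 0.37. With doublets left out, 57 of the 67 pairs had a value. Depth limits rare types most: in CAR cells the simulation recovered 2.27% of log2 changes of 1.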

Other observations

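Slfn14, a Schlafen gene outside the 6 and named after its values were seen, was at 49.2 and 16.6 CPM in erythroid&prog of vehicle mice and 5.02 and 13.3 CPM in PM mice, with a log2 fold change of -1.86 ± 0.81 that was not called. It had 0 to 5 UMIs in each sum of the other types. Endothelial cells were too few for a test, with 9 to 20 cells per mouse. In them Slfn5 was at 441 and 669 CPM in vehicle mice and 207 and 380 CPM in PM mice, on 10 to 17 UMIs, and both PM mice were below both vehicle mice.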
